A study of Danio rerio with 6 samples.

Results

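The proteasome is the large protease that degrades proteins tagged with ubiquitin. Its barrel-shaped 20S core has outer rings of alpha subunits, which gate the entry, and inner rings of beta subunits, a few of which carry the proteolytic sites. A 19S regulatory particle caps the barrel, binds ubiquitin chains, removes them and unfolds the substrate with a ring of ATPases. In vertebrates, interferon and immune cell types replace the catalytic beta subunits with immune forms that favour peptides for presentation on MHC class I molecules.

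Proteasome genes were taken as all rows of the deposited table whose symbol begins with psm, a letter from a to g and a digit, in lower case. The rule found 54 of 31624 gene rows. By role these were 9 alpha ring genes and 7 constitutive beta ring genes of the core, 7 ATPase and 13 non-ATPase genes of the regulatory particle, 5 immune-type beta genes, and 2 genes of the interferon-inducible PA28 alpha and beta activator. A further 3 encode other activators, 6 assembly chaperones, and 1 the inhibitor protein PI31. The last, psmc3ip, encodes a meiotic recombination factor that is not a proteasome subunit.

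The libraries came from zebrafish (Danio rerio) embryos, 3 with the genotype label Trdmt1 knockout and 3 control libraries with the genotype label wildtype. Trdmt1 methylates transfer RNAs, and the study asked what the gene does in zebrafish. The labels give neither the embryos' age nor the kind of allele, and do not tie libraries to separate clutches. The p-values therefore describe the spread of these samples, which may be technical.

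The reads assigned to genes came to 15191166 to 16085068 in knockout libraries and 12877132 to 18721589 in control libraries. Levels are given as RPKM, which corrects reads for exonic length and for the library's total. The knocked-out gene itself, trdmt1, had 1.59, 1.40 and 1.07 RPKM in knockouts 1, 2 and 3, against 3.10, 2.60 and 1.08 RPKM in controls 1, 2 and 3. Control 3 was within the knockout values, and the log2 fold change was -0.70 ± 0.38 (SE, edgeR adjusted p = 0.746). Knockouts 1 and 2 were nearly alike, with counts that differed by a chi-square per degree of freedom of 1.58, against 11.7 to 75.6 in the other 14 library pairs. Control 3 differed less from knockouts 1 and 2 (11.7 and 11.9) than from controls 1 and 2 (18.7 and 18.8). Knockout 3 differed least from control 3 (49.1). By this measure the libraries did not group by genotype label, but it grows with read depth, which was lowest in control 3. Knockout 3 stood apart in tissue genes. Retinal marker genes, 11 matched, summed to 1016 RPKM in knockout 3, against 47.99 to 124 RPKM in the controls and 25.3 RPKM in the lowest knockout library. The smallest p of that list were at rpe65a and pde6a (edgeR adjusted p = 0.505 and 0.756). Embryonic globin and hatching gland genes, 8 matched, summed to 6356, 6215 and 3617 RPKM in knockouts 1, 2 and 3, against 4845 to 5715 RPKM in the controls, so knockouts 1 and 2 were above and knockout 3 below every control. Most of that sum was the globin gene hbae3, at 4395, 4305 and 2368 RPKM in knockouts 1, 2 and 3. The hatching gland gene he1a stood at 172, 179 and 15.0 RPKM there, against 91.1 to 198 RPKM in the controls. Knockout 3 was the lowest library for 7 of the 8 genes. The smallest p of that list were at hbbe2 and hbbe1.1 (edgeR adjusted p = 0.615 and 0.774), and hbbe2 went against the sum, with its highest level, 477 RPKM, in knockout 3. No marker of either list was at 0 in all libraries. In whole embryos, fewer cells of a type and less RNA per cell cannot be told apart.

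Core and regulatory subunit genes were among the abundant transcripts of both groups. By contrast, the rows of the 5 immune-type beta genes of the rule held few or no reads. Outside the rule, the row PSMB10 stood at 2.39 to 3.01 RPKM in knockouts and 1.56 to 6.83 RPKM in controls. The 54 genes together took 0.512%, 0.513% and 0.405% of the reads of knockouts 1, 2 and 3, against 0.518%, 0.437% and 0.478% in controls 1, 2 and 3. The group means were 0.477% ± 0.0619 in knockouts and 0.478% ± 0.0406 in controls (SD, n = 3 each). Over the 48 genes that passed the filter on low counts, the median level was 67.4 RPKM over all 6 libraries, against 5.62 RPKM over all 20555 genes tested.

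**Figure D1:**
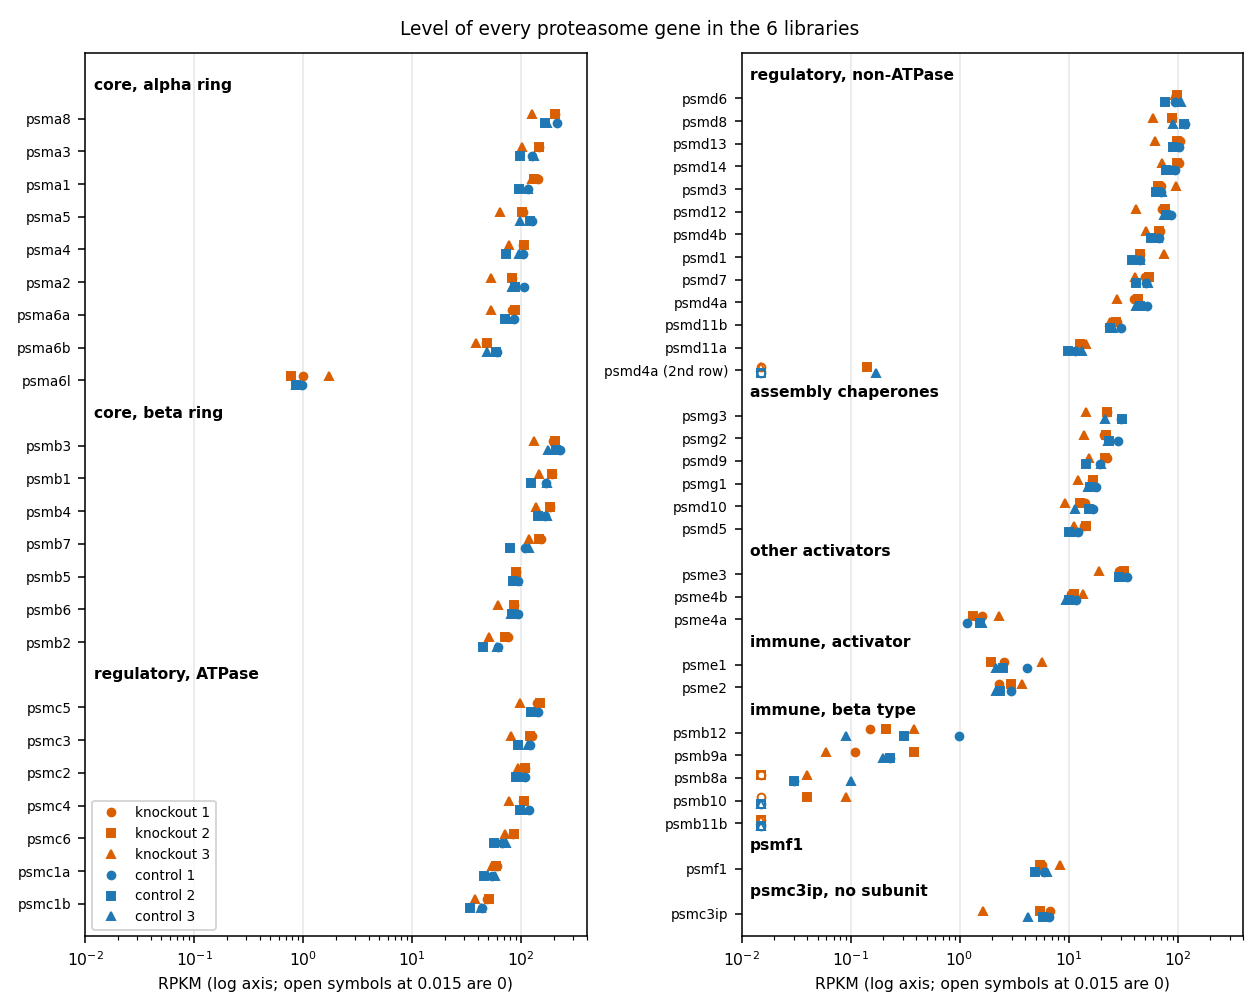
RPKM of each of the 54 proteasome gene rows on a log axis, by role, in 3 knockout libraries (orange, upper points) and 3 control libraries (blue, lower points). Most core and regulatory genes lie between 10 and 230 RPKM, and the immune-type beta genes lie under 1 RPKM in every library of both groups.

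In the alpha ring, psma8 had the highest level (ENSDARG00000010965, for which the RefSeq table of the GRCz12tu assembly lists psma7 as another name). It stood at 206, 204 and 125 RPKM in knockouts 1, 2 and 3, against 212, 166 and 174 RPKM in controls 1, 2 and 3. Knockout 3 was the lowest library for this gene and the other knockouts lay within the controls. At the other end stood psma6l, a copy of the psma6 genes, with 0.99, 0.78 and 1.74 RPKM in the knockouts and 0.97, 0.86 and 0.87 RPKM in the controls. The copies psma6a and psma6b averaged 74.9 ± 19.3 and 45.1 ± 5.29 RPKM in knockouts, against 77.9 ± 7.11 and 56.1 ± 6.41 RPKM in controls (SD, n = 3 each).

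The beta ring ran from psmb2, at 66.1 ± 13.7 RPKM in knockouts and 55.6 ± 9.36 RPKM in controls, to psmb3, a structural subunit, at 177 ± 39.4 RPKM in knockouts and 204 ± 26.3 RPKM in controls (SD, n = 3 each). The catalytic subunits lay between them. The gene psmb5, for the chymotrypsin-like site, stood at 90.5, 89.8 and 90.6 RPKM in knockouts 1, 2 and 3, against 93.0, 84.2 and 91.7 RPKM in controls 1, 2 and 3. Its fold change was 1.03 (95% interval 0.838 to 1.28), with the smallest standard error of the members, 0.13 on the log2 scale. For psmb6, the caspase-like site, the values were 86.5, 87.2 and 61.6 RPKM in the knockouts, against 94.9, 83.4 and 80.5 RPKM in the controls. In the order of mean levels in the beta ring, psmb5 and psmb6 were neighbours and did not differ beyond their spread.

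The regulatory particle stood somewhat below the core. The median regulatory gene was at 68.8%, 72.4% and 73.4% of the median core gene in knockouts 1, 2 and 3, and at 65.8%, 74.0% and 75.8% in controls 1, 2 and 3. Among the ATPases, psmc5 was highest, at 129 ± 27.6 RPKM in knockouts and 132 ± 10.5 RPKM in controls, and psmc1b lowest, at 45.8 ± 6.74 RPKM in knockouts and 40.3 ± 5.52 RPKM in controls (SD, n = 3 each). Among the non-ATPase genes, psmd6 had the highest mean over all 6 libraries, at 97.0 ± 2.30 RPKM in knockouts and 93.3 ± 15.7 RPKM in controls. In the controls alone psmd8 and psmd13 were higher, at 108 ± 13.9 and 96.1 ± 6.29 RPKM. They averaged 78.7 ± 17.1 and 88.7 ± 23.4 RPKM in knockouts. The lowest was psmd11a, at 13.2 ± 0.994 RPKM in knockouts and 11.5 ± 1.73 RPKM in controls. The deubiquitinase gene psmd14 averaged 91.3 ± 16.5 RPKM in knockouts and 87.9 ± 8.47 RPKM in controls. A second row with the symbol psmd4a (ENSDARG00000104952) held at most 0.17 RPKM in any library and was not tested.

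Several subunits are encoded by a pair of copies, and each pair kept its order in every library. The b copy of psmd4, the ubiquitin receptor, supplied 63.4%, 61.3% and 64.7% of the pair's summed RPKM in knockouts 1, 2 and 3, against 56.3%, 55.8% and 61.6% in controls 1, 2 and 3. These shares overlapped (two-sided exact permutation test over 20 assignments, p = 0.2, adjusted p = 0.667 over the 5 pairs, where 0.1 is the smallest p the design allows). For psmd11b the share was 66.4% ± 3.38 in knockouts and 69.6% ± 3.73 in controls, and for psma6b 38.1% ± 3.84 in knockouts and 41.8% ± 3.27 in controls (SD, n = 3 each). For psmc1b it was 44.1% ± 2.68 in knockouts and 43.4% ± 1.44 in controls, and for psme4b 87.2% ± 1.89 in knockouts and 87.8% ± 2.80 in controls. The exact permutation p of these 4 pairs lay between 0.3 and 0.9. Reads of similar copies can be assigned to either, so the shares are less certain than a pair's sum.

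The 5 immune-type beta genes of the rule were at or near the floor in both groups. The gene psmb8a, whose product takes the place of Psmb5 in the immunoproteasome, had 0, 0 and 1 reads in knockouts 1, 2 and 3, against 1, 1 and 2 reads in controls 1, 2 and 3. That is at most 0.0441% of the psmb5 level per length in a knockout library and 0.109% in a control library. Its counterpart for Psmb6, psmb9a, had 2, 7 and 1 reads in the knockouts, against 5, 5 and 3 reads in the controls. Neither gene passed the filter on low counts, and at this depth no difference was detectable in either.

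The fish-specific gene psmb12 had 2, 3 and 5 reads in knockouts 1, 2 and 3, against 16, 5 and 1 reads in controls 1, 2 and 3, so control 1 held 16 of the gene's 32 reads. The gene psmb11b, of the thymus type, had no read in any library, and 3 reads would have been 0.124 to 0.131 RPKM in the knockouts and 0.106 to 0.154 RPKM in the controls. The row named psmb10 in the deposited table (ENSDARG00000001656) carries the name psmb13a in the reference gene list, and had 0, 1 and 2 reads in the knockouts and none in the controls. These floors of 3 reads cover counting error only. The intervals given for fold changes of tested genes come from the edgeR fit and also include the spread between libraries. In the GRCz12tu assembly psmb13a, psmb8a, psmb12 and psmb9a lie side by side on chromosome 19, between the MHC genes mhc1uba and tap2a. Of these neighbours, mhc1uba had 14, 18 and 0 reads in knockouts 1, 2 and 3 and 0 in every control. Whether the reference sequence of this block matches these embryos was not tested, so few reads on its rows need not mean little transcript.

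A row in capitals, PSMB10 (ENSDARG00000043781), is outside the rule but carries the name of the immune counterpart of psmb7. It stood at 2.52, 3.01 and 2.39 RPKM in knockouts 1, 2 and 3, against 1.56, 6.83 and 4.30 RPKM in controls 1, 2 and 3. All knockout values lay within the control range. Its level was 1.67% to 2.04% of that of psmb7 in the knockouts and 1.44% to 8.61% in the controls.

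The PA28 genes psme1 and psme2, whose products form a ring that opens the core without ubiquitin, were detected at a few RPKM. The level of psme1 was 2.57, 1.96 and 5.72 RPKM in knockouts 1, 2 and 3, against 4.15, 2.5 and 2.18 RPKM in controls 1, 2 and 3. For psme2 it was 2.30, 2.95 and 3.70 RPKM in the knockouts, against 2.98, 2.35 and 2.14 RPKM in the controls. Knockout 3 was highest for both genes, and the groups overlapped for both. The fold change was 1.18 (95% interval 0.604 to 2.33) for psme1 and 1.23 (0.805 to 1.88) for psme2, with edgeR adjusted p of 0.92 and 0.831. The pair's median log2 fold change was 0.27 with all libraries and -0.12 with knockout 3 left out.

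**Figure D2:**
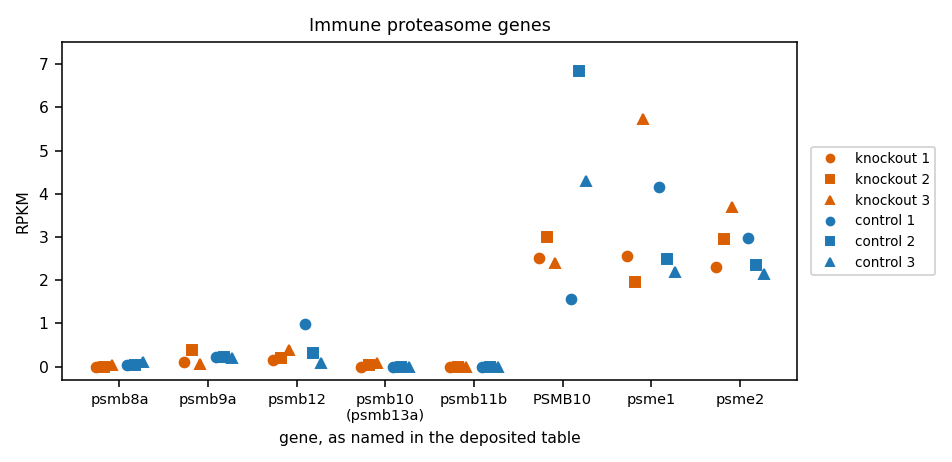
RPKM of the immune proteasome genes in 3 knockout libraries (orange, left in each gene) and 3 control libraries (blue, right), with the row PSMB10, which the symbol rule does not take. The 5 immune-type beta members lie under 1 RPKM in all 6 libraries, and psme1 reaches its highest value, 5.72 RPKM, in knockout 3.

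Genes that act around the immunoproteasome were read from lists chosen with earlier results of these data known. Of 13 tested genes of MHC class I presentation none passed the threshold, against 0.117% of all genes. Of these 13, 8 had positive log2 fold changes, against 49.5% of all genes, and the median was 0.14. The class I gene mhc1ula stood at 0.16, 0.08 and 0.00 RPKM in knockouts 1, 2 and 3, against 0.70, 0.40 and 0.68 RPKM in controls 1, 2 and 3 (edgeR adjusted p = 0.336). The peptide-trimming aminopeptidase gene erap1b stood at 0.69, 0.69 and 1.32 RPKM in the knockouts, against 0.34, 0.44 and 0.41 RPKM in the controls (edgeR adjusted p = 0.425). In both genes, picked for the smallest p of the list, the groups did not overlap, as in 15.3% of all genes. The values of mhc1ula rest on 4, 2 and 0 reads in the knockouts and 21, 12 and 14 in the controls. The class I gene mhc1uba, not tested, had 14, 18 and 0 reads in the knockouts and 0 in every control.

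Of 11 tested interferon-response genes none passed, with 8 positive (all genes: 0.117% called, 49.5% positive). Their median log2 fold change was 0.23. The ubiquitin-like gene isg15 stood at 2.08, 1.74 and 4.96 RPKM in knockouts 1, 2 and 3, against 0.47, 0.33 and 0.27 RPKM in controls 1, 2 and 3 (edgeR adjusted p = 0.0888), and the factor gene irf7 at 5.09, 4.79 and 2.89 RPKM in the knockouts, against 1.86, 2.64 and 2.28 RPKM in the controls (edgeR adjusted p = 0.412). Among 18 tested leukocyte markers 13 were positive, against 49.5% of all genes, with a median of 0.32. Of them 1 passed, against 0.117% of all genes. This was the macrophage gene marco, at 6.88, 5.82 and 5.44 RPKM in knockouts 1, 2 and 3, against 2.32, 1.54 and 1.62 RPKM in controls 1, 2 and 3, with an edgeR adjusted p of 0.0491 just inside the threshold. The call of marco was lost when any library other than knockout 3 was left out (edgeR adjusted p of 0.0759, 0.353 and 0.241 without controls 1, 2 and 3, and 0.120 and 0.103 without knockouts 1 and 2), and the log2 fold change stayed between 1.64 and 1.98. The cytokine gene il1b stood at 12, 12.2 and 4.49 RPKM in the knockouts, against 0.95, 0.40 and 2.00 RPKM in the controls (edgeR adjusted p = 0.160). Of the 5 negative markers, csf1rb stood at 0.71, 0.69 and 0.77 RPKM in the knockouts, against 1.19, 1.61 and 1.23 RPKM in the controls (edgeR adjusted p = 0.301). All 20 leukocyte markers, of which none was at 0 in all libraries, summed to 118 to 207 RPKM in the knockouts and 155.5 to 186 RPKM in the controls. In that sum lyz alone held 115, 112 and 31.0 RPKM in knockouts 1, 2 and 3, against 119, 140 and 96.1 RPKM in controls 1, 2 and 3. The part of these markers in the levels of the immune subunits was not tested.

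No proteasome gene passed the threshold between knockout and control embryos. Of the 48 tested, 0 were called by edgeR at a threshold of 0.05 on the p adjusted over 20555 genes, where 0.117% of all genes were called. At an unadjusted p under 0.05 there was 1, psmb7, against 7.47% of all genes. DESeq2 on the same genes called 0 members and 1.14% of all genes, and 2 members and 7.34% of all genes had an unadjusted p under 0.05. DESeq2 without the filter on low counts, which was run first, called 0 members and 1.13% of all genes, with 1 member and 7.14% of all genes at an unadjusted p under 0.05. The members' median log2 fold change was 0.07, with 29 positive and 19 negative, beside a median of -0.00 over all genes, of which 49.5% were positive. The sign of the members' median depended on control 2: it was -0.03 with 22 positive without control 2, and 0.12 with 38 positive without knockout 3.

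The estimates lay in a narrow band. None of the 48 fold changes was past 1.5 in either direction, against 10.4% of all genes tested. The median level was 67.4 RPKM for the members and 5.62 RPKM for all genes, and genes of like level were not compared. They ran from a log2 fold change of -0.44 to 0.47, while the 5th and 95th percentiles of all genes were -0.55 and 0.65. The median standard error was 0.19 on the log2 scale for the members and 0.23 for all genes. Among core and regulatory genes the 95% intervals reached a fold of 0.558 at the low end, for psmd8, and 1.90 at the high end, for psmb7, leaving aside the scarce psma6l, whose interval reached 2.48. Differences inside these intervals were not detectable at this depth and number of libraries.

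**Figure D3:**
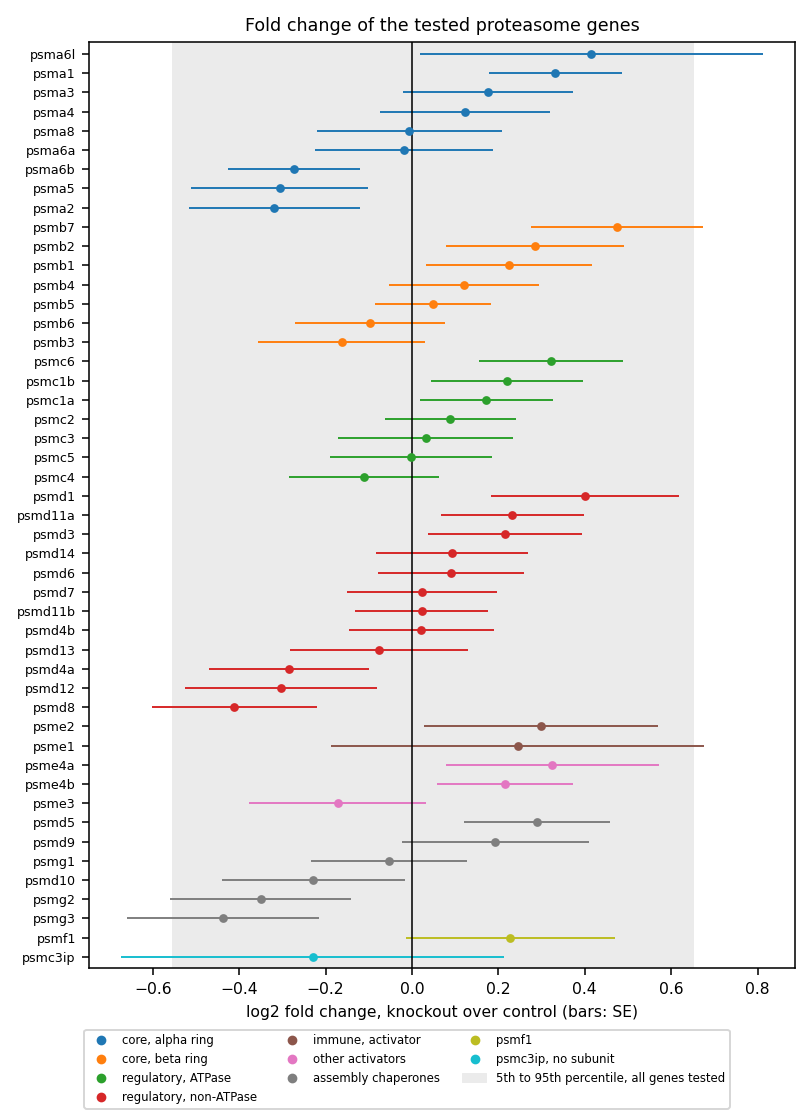
Log2 fold change of knockout over control for the 48 tested proteasome genes, with bars of 1 standard error from edgeR, by role. The grey band spans the 5th to the 95th percentile of all 20555 genes tested, -0.55 to 0.65, and every member lies inside it.

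In the core the median log2 fold change was 0.08 over 16 genes, 9 of them positive. The gene psmb7, for the trypsin-like site, stood at 151, 148 and 117 RPKM in knockouts 1, 2 and 3, against 108, 79.3 and 119.6 RPKM in controls 1, 2 and 3. Knockouts 1 and 2 were above every control and knockout 3 lay within them. The fold change was 1.39 (95% interval 1.02 to 1.90, edgeR adjusted p = 0.643). The alpha ring gene psma1 stood at 144, 132 and 126 RPKM in the knockouts, against 115, 95.6 and 117 RPKM in the controls, and was the only member with every knockout above every control. Its fold change was 1.26 (95% interval 0.990 to 1.60, edgeR adjusted p = 0.690).

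In other alpha ring genes the estimate was negative and did not pass. For psma2 the level was 82.1, 82.6 and 53.5 RPKM in knockouts 1, 2 and 3, against 108, 89.1 and 83.0 RPKM in controls 1, 2 and 3. For psma6b it was 48.0, 48.3 and 39.0 RPKM in the knockouts, against 60.1, 59.5 and 48.7 RPKM in the controls. Both had every knockout below every control by a small margin, with edgeR adjusted p of 0.763 and 0.756. In the beta ring, psmb1 averaged 176 ± 26.7 RPKM in knockouts and 155 ± 27.1 RPKM in controls (SD, n = 3 each), with an edgeR adjusted p of 0.823, and psmb2 had a fold change of 1.22 (95% interval 0.884 to 1.68).

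In the regulatory particle the median log2 fold change was 0.03 over 19 genes, 13 of them positive. It was -0.00 with libraries scaled by their totals, where the median over all genes was -0.04. Without control 2 it was -0.06, beside 0.01 over all genes, so no direction is given. The lid gene psmd8 stood at 88.1, 88.9 and 58.9 RPKM in knockouts 1, 2 and 3, against 116, 116 and 91.6 RPKM in controls 1, 2 and 3, with every knockout below every control. Its fold change was 0.752 (95% interval 0.558 to 1.02, edgeR adjusted p = 0.696). The gene psmd1, for a large scaffold subunit of the base, stood at 45.7, 45.5 and 75.4 RPKM in the knockouts, against 45.6, 38.3 and 45.4 RPKM in the controls. Its excess was in knockout 3, and the other knockouts were level with 2 of the controls (fold 1.32, 95% interval 0.940 to 1.86).

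The ubiquitin receptor gene psmd4a averaged 36.8 ± 7.80 RPKM in knockouts and 46.1 ± 5.48 RPKM in controls (SD, n = 3 each), a fold of 0.821 (95% interval 0.614 to 1.1). Of the ATPases, psmc6 averaged 80.1 ± 8.11 RPKM in knockouts and 65.7 ± 8.83 RPKM in controls, a fold of 1.25 (95% interval 0.963 to 1.62). The copies psmc1a and psmc1b had folds of 1.13 and 1.16. In edgeR their adjusted p were 0.774 for psmd4a, 0.734 for psmc6, 0.830 for psmc1a and 0.810 for psmc1b.

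Of the tested members, 5 had groups that did not overlap in RPKM, 1 above and 4 below, which for all genes were 6.30% above, 9.0% below and 15.3% in either direction. Besides the genes already given, this was psmg2, which with psmg1 forms a chaperone of alpha ring assembly. It stood at 21.2, 22.1 and 13.7 RPKM in knockouts 1, 2 and 3, against 28.3, 23.4 and 23.0 RPKM in controls 1, 2 and 3 (edgeR adjusted p = 0.761). The chaperone gene psmg3 stood at 22.5, 22.4 and 14.5 RPKM in the knockouts, against 30.2, 31.1 and 21.5 RPKM in the controls, a fold of 0.739 (95% interval 0.522 to 1.05). The base chaperone gene psmd5 stood at 13.8, 14.5 and 11.2 RPKM in the knockouts, against 12.2, 10.1 and 10.9 RPKM in the controls, a fold of 1.22 (95% interval 0.938 to 1.59). The 6 assembly genes had a median log2 fold change of -0.14, with 2 positive.

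The remaining activators and the inhibitor showed a similar spread. The gene psme3, for the nuclear PA28 gamma ring, averaged 26.7 ± 6.94 RPKM in knockouts and 30.9 ± 2.86 RPKM in controls. The PA200 copies psme4a and psme4b averaged 1.75 ± 0.504 and 11.8 ± 1.61 RPKM in knockouts, against 1.43 ± 0.229 and 10.4 ± 1.18 RPKM in controls. The PI31 gene psmf1 averaged 6.51 ± 1.58 RPKM in knockouts and 5.71 ± 0.691 RPKM in controls (SD, n = 3 each). Knockout 3 was highest for psme4a, psme4b and psmf1 and lowest for psme3, and none passed the threshold (edgeR adjusted p between 0.793 and 0.872).

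The meiotic gene psmc3ip stood at 6.75, 5.43 and 1.64 RPKM in knockouts 1, 2 and 3, against 6.56, 5.84 and 4.28 RPKM in controls 1, 2 and 3 (edgeR adjusted p = 0.929). Its partner in recombination, mnd1, stood at 5.83, 6.33 and 3.80 RPKM in the knockouts, against 5.69, 6.84 and 6.97 RPKM in the controls. Knockout 3 was lowest for both genes. Germ cell markers other than mnd1, which is on that list, were scarce. Of the 11 markers 5 were tested, none passed and 0 were positive (all genes: 0.117% called, 49.5% positive). The smallest p were at ddx4 and piwil1. The helicase gene ddx4 stood at 0.20 to 0.26 RPKM in the knockouts and 0.51 to 0.70 RPKM in the controls (edgeR adjusted p = 0.334). For piwil1 it was 0.22 to 0.29 RPKM in the knockouts and 0.35 to 0.45 RPKM in the controls (edgeR adjusted p = 0.756). In both the groups did not overlap, as in 15.3% of all genes, and in the other tested markers they overlapped.

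Core and regulatory genes shifted together between libraries of 1 group. The median core gene, as log2 CPM minus the control mean, stood at 0.19, 0.21 and -0.18 in knockouts 1, 2 and 3, against 0.13, -0.17 and 0.05 in controls 1, 2 and 3. The median regulatory gene stood at 0.13, 0.15 and -0.23 in the knockouts, against 0.11, -0.19 and 0.10 in the controls. Knockout 3 and control 2 were the lowest libraries in both groups of genes. Over all genes tested the medians lay between -0.01 and 0.01 in every library, which the scaling of the libraries brings near 0 in advance. They are therefore no test of the shift.

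**Figure D4:**
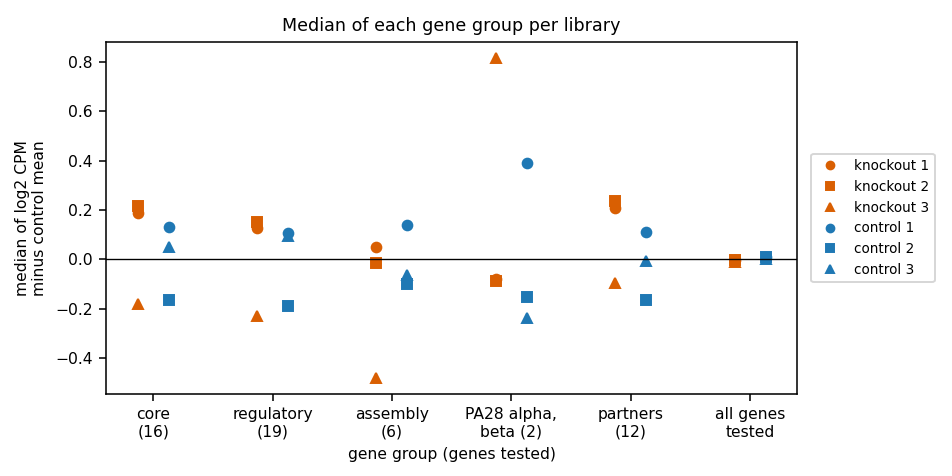
Median deviation of each gene group in each library, in log2 CPM relative to the control mean, knockouts in orange on the left and controls in blue on the right of each group. Knockout 3 and control 2 are lowest in the core and regulatory groups, whereas knockout 3 is highest, at 0.81, for the pair of PA28 genes.

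Knockout 3 was below all controls for 24 of the 48 members, against 37.3% of all genes, and above all controls for 10, against 31.8%. It was below both other knockouts for 38 members, against 46.7% of all genes. Knockouts 1 and 2 were both above all controls for 15 members, against 13.6% of all genes, and both below for 4, against 19%. Control 2 was the lowest library for 19 members, against 13.3% of all genes. The core and regulatory genes were low in knockout 3 at both lengths compared, with medians of -0.18 for 19 genes under 1500 exonic bases and -0.17 for 16 longer genes. All genes of those lengths stood at -0.23 and 0.04. In knockout 3 the short members were thus no lower than all short genes, whereas the longer members were lower than all longer genes. In control 2 the short and longer members stood at -0.18 and -0.19, and all genes of those lengths at 0.035 and 0.002. The part of length in these shifts was not tested.

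Subunits of the same particle parted in knockout 3. The lid gene psmd12 stood at 41.9 RPKM there, against 72.0 and 76.1 RPKM in knockouts 1 and 2 and 75.0 to 87.7 RPKM in the controls, whereas psmd3, also of the lid, stood at 97.0 RPKM, against 70.8 and 65.9 RPKM in the other knockouts and 64.0 to 71.3 RPKM in the controls. In the alpha ring, psma5 stood at 64.6 RPKM in knockout 3, against 104 and 102 RPKM in the other knockouts and 97.4 to 127 RPKM in the controls, and psma1 was above every control. Knockout 3 also had the highest retinal and the lowest embryonic marker sum given above, and their part in the pattern was not tested. The genes psmd12, psmd3 and psma5 were chosen after their values were seen.

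**Figure D5:**
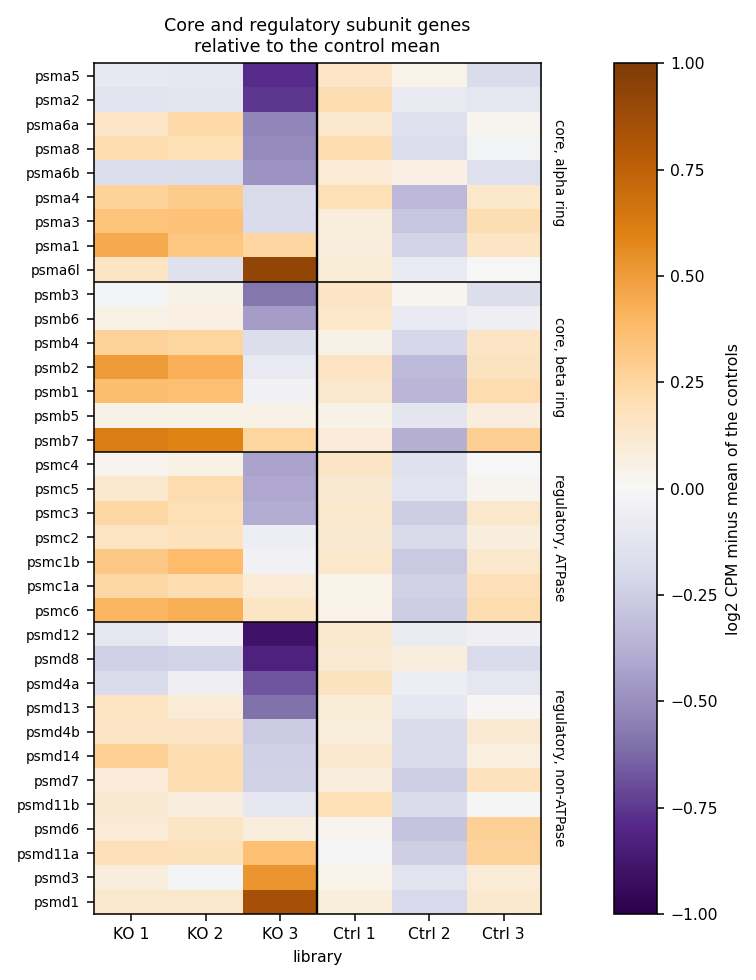
Log2 CPM minus the control mean for the 35 tested core and regulatory genes (rows, by role) in 3 knockout libraries (left) and 3 control libraries (right of the line). Knockouts 1 and 2 are alike in nearly every row, and knockout 3 ranges from -0.90 for psmd12 to 0.93 for psma6l.

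Without knockout 3, still no member passed, where 0.985% of all genes were called. That fit rests on knockouts 1 and 2, which were nearly alike (chi-square per degree of freedom of 1.58). Its p-values may therefore be too small. There were then 6 of 48 members with an unadjusted p under 0.05, all higher, against 5.99% of all genes. These were psma1, psmb2, psmb7, psmc1b, psmc6 and psmd5, with log2 fold changes of 0.34 to 0.58 and edgeR adjusted p of 0.212 to 0.403. The adjusted p of psmb7 ran from 0.212, in this edgeR fit, to 0.976 without control 2 over all alternatives. With knockouts 1 and 2 summed and knockout 3 kept, 0 members had an unadjusted edgeR p under 0.05, against 1194 of 21230 genes. Over all genes that fit called 16, against 24 in the main fit. The main fit also counts knockouts 1 and 2 as separate libraries, so its p-values may be too small as well.

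Genes that work with the proteasome were read in the same fit. Of 12 tested partners none passed, with 8 positive (all genes: 0.117% called, 49.5% positive). Their median log2 fold change was 0.14. Core maturation factor gene pomp stood at 104, 96.3 and 79.2 RPKM in knockouts 1, 2 and 3, against 89.7, 72.7 and 88.9 RPKM in controls 1, 2 and 3. Knockout 3 and control 2 were again the lowest. The gene zfand5a, for a zinc finger protein that binds the proteasome, stood at 23.7, 25.3 and 31.8 RPKM in the knockouts, against 14.8, 15.0 and 12.8 RPKM in the controls. The groups did not overlap, as in 15.3% of all genes, with a fold of 1.95 and an edgeR adjusted p of 0.0774. Its copy zfand5b stood at 26.5, 27.7 and 37.9 RPKM in the knockouts, against 25.1, 20.8 and 20.5 RPKM in the controls (edgeR adjusted p = 0.547).

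Of 14 tested ubiquitin and shuttle factor genes none passed, with 12 positive (all genes: 0.117% called, 49.5% positive). Their median log2 fold change was 0.13. The autophagy receptor gene sqstm1 stood at 28.1, 29.0 and 32.1 RPKM in knockouts 1, 2 and 3, against 17.2, 19.4 and 16.7 RPKM in controls 1, 2 and 3 (fold 1.72, edgeR adjusted p = 0.0929). The polyubiquitin gene ubb stood at 51.9, 52.9 and 39.9 RPKM in the knockouts, against 23.6, 25.4 and 37.4 RPKM in the controls (fold 1.71, edgeR adjusted p = 0.367). In both genes, picked for the smallest p of the list, the groups did not overlap, as in 15.3% of all genes.

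Nfe2l1 is the transcription factor that raises proteasome gene transcription when the protease is impaired. Of the 10 genes of its axis none passed, with 7 positive (all genes: 0.117% called, 49.5% positive). Their median log2 fold change was 0.13. The copies nfe2l1a and nfe2l1b averaged a few RPKM, at 3.14 to 4.23 and 4.58 to 6.03 RPKM in the knockouts, against 2.96 to 3.72 and 5.81 to 7.42 RPKM in the controls. The small Maf genes maff and mafk, for partners of such factors, had folds of 1.34 and 1.59 (edgeR adjusted p = 0.532 and 0.621).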

How the data were processed

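Trimmomatic 0.30, HISAT2 2.0.1, HTSeq 0.6.1, DESeq and the build Zv9 are named, with no roles, in the submitters' processing notes. The sources used here do not state whether counting used strand. The authors deposited whole-number read counts per gene and library, and RPKM values, which equal the counts per exonic length and library total within 0.005. The table's other 6 per-sample columns match none of these libraries and were not used.

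Genes were filtered with filterByExpr in edgeR 4.0.16 (R 4.3.3), scaled by TMM and compared with the robust quasi-likelihood test over 3 knockout and 3 control libraries, with Benjamini-Hochberg adjustment over 20555 genes. DESeq2 1.42.0 was the alternative tool. It was first run without the filter on low counts; after that result was seen it was limited to the genes edgeR tested, and both runs are given. The 1500-base split, the 1.5-fold line, the intervals and the paralog pairs were also chosen after values were seen. The procedure was tested on simulated data. These were independent libraries with the same dispersion for every gene. They do not cover the nearly alike knockouts 1 and 2 or the distant knockout 3. Standard errors come from the F statistic, and intervals are at 95%. Means and SD are of RPKM; log2 CPM used a prior count of 2. Named were all immune members and, per other role, the highest, the lowest and the 3 genes of smallest p; of other lists the called genes and 2 of smallest p. Genes named beyond that serve as role examples and were chosen after their values were seen. Members and lists were chosen with earlier results of these data known. Of the 54 IDs, 53 matched the reference gene list.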

Additional observations from a re-analysis of the deposited data

How the results depend on the processing

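No proteasome gene passed under any of the 15 alternatives run, among them DESeq2 1.42.0, other scalings and filters, and each library left out. The smallest adjusted p was 0.212 in edgeR, for psmb7 without knockout 3, a fit that rests on the nearly alike knockouts 1 and 2. Median log2 fold changes of the 3 classes moved from their reported values by less than 1 SD between libraries. That SD includes the spread due to the library left out, so the limit is lenient and is no test of stability. With each library left out the medians ranged from -0.01 to 0.19 for the core and -0.06 to 0.14 for regulatory genes. For the PA28 pair they ranged from -0.12 to 0.52. The core turned negative without control 2 only. Regulatory genes turned negative with library totals (-0.0044), with knockouts 1 and 2 summed (-0.0070), without control 2 and without knockout 1. The median over all genes was -0.0432 with library totals and -0.0031 with knockouts 1 and 2 summed, against -0.0038 in the main fit. Library totals were chosen after seeing the data, and the limit of DESeq2 to the genes edgeR tested was set after its run without that filter was seen. Over all genes, 24 were called, 234 by DESeq2 on the genes edgeR tested, 235 by DESeq2 without the filter on low counts, 53 with no filter, and 0 to 206 with a library left out, the extremes without control 2 and without knockout 3. Without control 2 edgeR called 0 genes and 956 had an unadjusted p under 0.05. Without control 1 it called 8 and without control 3 it called 4. Summed in place of median RPKM, regulatory genes stood at 80.5% of the core, against 71.7%, and the immune pair at 0.359%, against 3.10%. The replicate block, for numbers that do not pair the samples, called 18 genes and 0 proteasome genes. Same-numbered libraries did not deviate together (correlations of -0.0001, -0.0587 and -0.0348). The call of marco was lost in 8 of the 15 alternatives, among them library totals, knockouts 1 and 2 summed, and the replicate block (adjusted p = 0.0611, 0.119 and 0.0653). Counts of under 20 reads limit the immune-type beta genes.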

Other observations

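Rows outside the symbol rule included 2 further genes that the reference tables or a capital symbol name as proteasome genes. The row si:rp71-45k5.4 (ENSDARG00000035679), which the reference gene list names PSMA2, stood at 106, 114 and 81.7 RPKM in knockouts 1, 2 and 3, against 108, 108 and 100 RPKM in controls 1, 2 and 3 (edgeR adjusted p = 0.982). The row PSMG4 (ENSDARG00000090191), an assembly chaperone by its symbol, stood at 17.3, 18.5 and 13.7 RPKM in the knockouts, against 13.98, 13.8 and 20.4 RPKM in the controls (edgeR adjusted p = 0.962). Knockout 3 was the lowest library of all 6 for si:rp71-45k5.4. For PSMG4 it was nearly level with controls 1 and 2, at 13.73 RPKM against 13.98 and 13.80 RPKM.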
